A study of Danio rerio with 12 samples.

Results

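The positive limb of the circadian clock was followed through 6 zebrafish genes, bmal1a, bmal1b, bmal2, clocka, clockb and npas2, in whole eyes that were heterozygous or mutant for mmachc. The genes were found by platform symbol: a probe set counted if its single gene symbol was one of these names, which gave 6 probe sets, 1 per gene, out of 75212 probe sets and 19260 genes on the array. Total RNA from whole eyes was hybridised to 12 arrays in 4 groups of 3 pools, labelled mmachc_Het and mmachc_mutant, with eyes taken 7 or 28 days after fertilization (dpf). By their titles the mutants are homozygous. All groups carry at least 1 mutant mmachc allele, so no eye without the mutation was compared, and the nature of the allele, the number of fish in a pool and the time of day at which eyes were taken are not given in the sources used here. The mmachc product processes vitamin B12 (cobalamin) after its uptake into the cell.

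BMAL proteins pair with CLOCK or with its relative NPAS2, and each pair binds E-box sequences and switches on the genes of the period and cryptochrome repressors. Those repressors then block the pair that made them, which closes a daily loop. In a second loop, known best from mammals, nuclear receptors of the ROR family raise and those of the Rev-erb family lower the transcription of Bmal1, and Rev-erb also lowers Clock and Npas2. Zebrafish keep duplicate copies of several of these genes, and the clocks of their tissues, the eye among them, can be set directly by light.

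The values are log2 intensities, in which a difference of 1 is a doubling or a halving. All 12 arrays were closely alike within their groups, with correlations over genes of 0.989 to 0.994. The probe set listed for mmachc is also listed for hspa8, so the level of the mutated gene could not serve as a check of the genotype labels. The labelled tissue was checked against markers: 17 of 17 photoreceptor, 18 of 18 inner retina neuron, 11 of 11 pigment epithelium and 13 of 14 lens markers exceeded the 33rd percentile of probe sets that carry a gene name, on every array. None of the 7 liver markers (0) did so. Of the other marker lists, 4 of 15 skeletal muscle, 4 of 8 erythrocyte and 2 of 4 pineal markers did. A transcript was tested if it lay above that percentile on at least 3 of 12 arrays, as 14002 genes did, and all 6 clock activators passed. They also passed a stricter filter at the 50th percentile. In whole eyes, a transcript that is lower because fewer cells make it cannot be told apart from one that is lower in each cell.

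In larval eyes at 7 dpf, the comparison of mutant with heterozygous eyes asked which activators differed between the genotypes. Transcripts of bmal2 and clocka rose in the mutants, bmal2 by 1.75 ± 0.16 (difference ± SE, log2), which is 3.37-fold, and clocka by 0.75 ± 0.085, which is 1.69-fold (n = 3 against 3, limma adjusted p = 2.2e-06 and 2.1e-05). These 2 of 6 genes compare with 12.4% of all genes tested, and with the 4.05% that rose. Among the 14002 genes ordered from the largest rise, bmal2 stood at place 6 and clocka at place 45. No activator fell (0 of 6, against 8.4% of all genes), and the other 4 did not pass the test. Times of day at collection are not given, so a difference in time between groups cannot be told apart from one of genotype or age. This holds at both ages and for the interaction.

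Among the BMAL partners, bmal1a and bmal1b are the copies of mammalian Bmal1, and bmal2 is the related gene whose mammalian product can also pair with CLOCK. The level of bmal2 was 7.66, 7.85 and 8.05 in the heterozygous pools and 9.68, 9.52 and 9.62 in the mutant pools, so the groups lay far apart. The mutant pools differed by little among themselves (SD 0.080), while the heterozygous pools were more spread than 95.7% of all genes tested (SD 0.20). For bmal1a the heterozygous pools measured 7.86, 7.91 and 8.01 and the mutant pools 8.28, 8.09 and 8.07. All mutant pools of bmal1a were above all heterozygous pools, as was the case for 3 of the 6 activators, against 30.4% of all genes whose groups did not overlap in either direction. Its difference of 0.22 ± 0.078 did not pass (adjusted p = 0.0797), but it passed after the arrays were centred on their named probe sets (0.25, adjusted p = 0.0418) and after quantile normalization over the tested genes (0.26, adjusted p = 0.0289). For bmal1b the pools overlapped, at 9.91, 9.95 and 10.01 in heterozygous and 10.02, 9.98 and 9.99 in mutant eyes. Its difference was 0.038 (95% confidence interval -0.11 to 0.18).

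Among the CLOCK partners, clocka and clockb are the copies of Clock, and npas2 encodes a relative that can take the place of CLOCK beside BMAL. The level of clocka was 9.72, 9.71 and 9.79 in heterozygous and 10.42, 10.58 and 10.49 in mutant eyes. Each group of clocka pools was tight, and the groups did not overlap. The level of clockb was 10.16, 10.09 and 10.23 in heterozygous and 10.38, 10.22 and 10.28 in mutant eyes. Those groups touched, since the highest heterozygous pool passed the lowest mutant pool, and the difference of 0.14 ± 0.060 did not pass (adjusted p = 0.167). After quantile normalization over the tested genes it was 0.18 and passed (adjusted p = 0.0467). For npas2 the heterozygous pools measured 10.50, 10.47 and 10.60 and the mutant pools 10.45, 10.36 and 10.52. The npas2 groups overlapped, and the difference was -0.076 (95% confidence interval -0.22 to 0.069).

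Sums of marker lists also differed between the genotypes at 7 dpf. The 17 photoreceptor markers summed to 41077.8 to 42124 in heterozygous and 39459.8 to 40691 in mutant pools. Not all of them were lower in mutant eyes, with log2 means of 11.71 and 11.01 for pde6c but 11.49 and 11.60 for gnat1. The summed linear level of the 11 pigment epithelium markers was 16209.5 to 18520 in heterozygous and 13138 to 14532 in mutant pools, and that of the 7 Muller glia markers 7214 to 7362 and 6234 to 6642. The 4 pineal markers summed to 1693 to 1808 and 2327 to 2428. This rise was carried by aanat2, a melatonin synthesis gene that is itself under clock control, with log2 means of 8.84 and 10.10. The means of exorh were 6.89 and 6.59 and those of otx5 10.13 and 10.17, while bsx lay below the 33rd percentile on all arrays (0 of 12 above). Whether these sums reflect numbers of cells, and their part in the differences of the activators, was not tested.

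**Figure D1:**
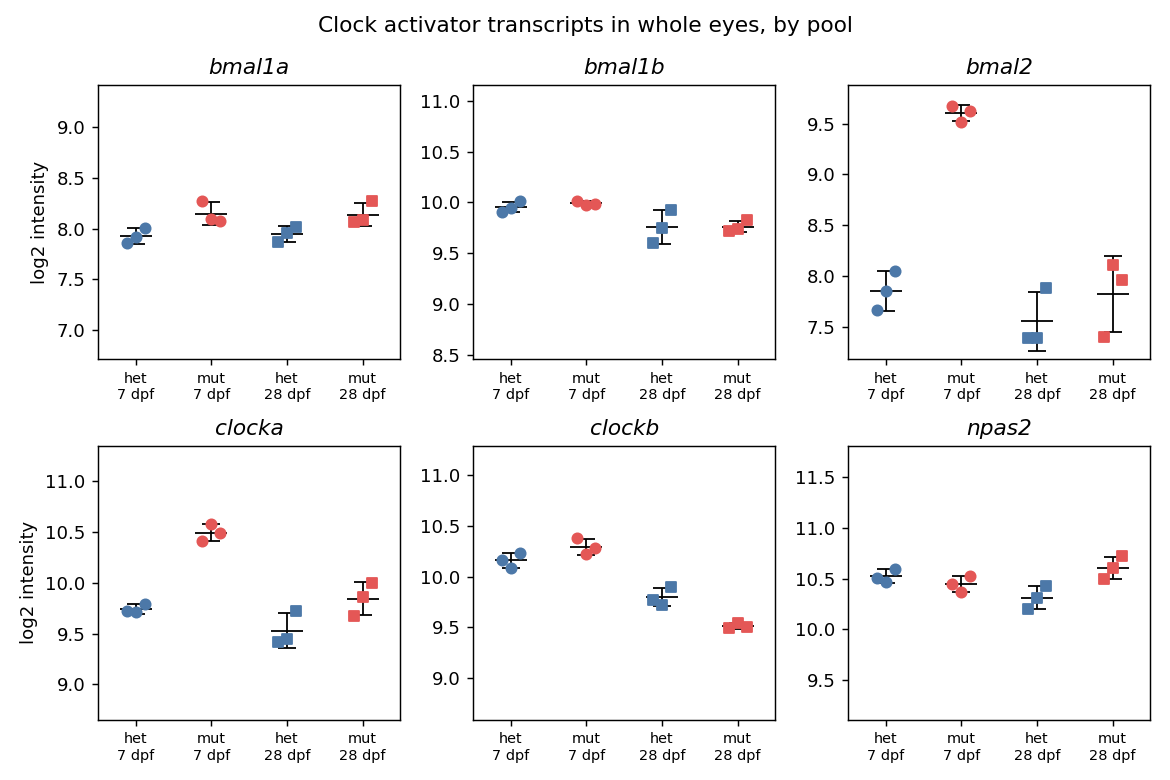
Log2 intensity of each clock activator (vertical axis) in the 4 groups (horizontal axis; het, heterozygous, blue; mut, mutant, red; circles 7 dpf, squares 28 dpf). Each point is 1 pool, the horizontal mark is the mean and the whisker the SD of 3 pools, and all panels span the same height. The mutant pools at 7 dpf stand apart for bmal2 (9.52 to 9.68) and clocka (10.42 to 10.58), and the mutant pools at 28 dpf are the lowest for clockb (9.50 to 9.55).

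In juvenile eyes at 28 dpf the same comparison called 4 of the 6 activators. Transcripts of clocka rose by 0.32 ± 0.085 (adjusted p = 0.00446), npas2 by 0.30 ± 0.069 (adjusted p = 0.00141) and bmal1a by 0.19 ± 0.078 (adjusted p = 0.0451), while clockb fell by 0.28 ± 0.060 (adjusted p = 0.000743; limma, n = 3 against 3). Of all genes 60.8% were called at 28 dpf, so 4 called of 6 is near the background; 21.8% of all genes rose and 39% fell. After centring 5 activators rose and 0 fell, and after quantile normalization 4 rose and 1 fell. The median of the 6 differences was 0.23 against -0.089 over all genes, and the median size was 0.28 against 0.26. Depending on how the arrays were scaled, the median of all genes moved from -0.089 to 0.11 (centring) or to 0.015 (quantile normalization), so values at 28 dpf are relative to such a shift. After centring the differences of clocka, npas2 and bmal1a were 0.51, 0.50 and 0.39, and that of bmal1a was 0.32 after quantile normalization. Rises made up 35.8% of the calls over all genes, 64.0% after centring and 51.7% after quantile normalization.

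Levels of bmal2 at 28 dpf were 7.39, 7.39 and 7.88 in heterozygous and 7.40, 8.11 and 7.96 in mutant eyes. One mutant pool thus lay with the lower heterozygous pools. The spread of bmal2 between these pools was larger than in 98.5% of genes for heterozygous and in 99.1% for mutant eyes (SD 0.29 and 0.38). Its difference of 0.27 ± 0.16 did not pass (adjusted p = 0.154; 95% confidence interval -0.068 to 0.61), and it passed after centring (0.47, adjusted p = 0.0159) and after quantile normalization (0.44, adjusted p = 0.0226). It also passed when replicate 3 of the heterozygous eyes was left out (0.44, adjusted p = 0.0261) or replicate 1 of the mutant eyes (0.48, adjusted p = 0.00700), both at 28 dpf.

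The pools of bmal1a at 28 dpf measured 7.87, 7.96 and 8.02 in heterozygous and 8.06, 8.08 and 8.27 in mutant eyes. As at 7 dpf, every mutant pool lay above every heterozygous pool, but the gap between the groups was small. The call rests on single arrays: it was lost without any one of 5 of the 12 arrays, namely replicate 2 of either genotype at 7 dpf (adjusted p = 0.0572 heterozygous and 0.0523 mutant) and, at 28 dpf, heterozygous replicate 1 (0.15, adjusted p = 0.159) or 2 (0.20, adjusted p = 0.0791) or mutant replicate 3 (0.12, adjusted p = 0.207). It was also lost with no filter on low values (adjusted p = 0.0553) and in a fit of the 28 dpf arrays alone (adjusted p = 0.0578). For bmal1b the heterozygous pools measured 9.60, 9.75 and 9.93 and the mutant pools 9.72, 9.74 and 9.83. The mutant pools lay within the heterozygous range, with a difference of 0.0040 (95% confidence interval -0.14 to 0.15). Its sign depended on the scaling, at -0.0087 after quantile normalization and 0.20 after centring, where it passed (adjusted p = 0.0186).

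The level of clocka at 28 dpf was 9.42, 9.44 and 9.72 in heterozygous and 9.67, 9.86 and 10.001 in mutant eyes. The groups overlapped, since the highest heterozygous pool lay above the lowest mutant pool, yet the difference kept its call without any one array (0.24 to 0.41). The level of clockb was 9.77, 9.72 and 9.90 in heterozygous and 9.50, 9.55 and 9.50 in mutant eyes. No mutant pool reached a heterozygous pool, and the SD of the mutant pools (0.027) was at percentile 6.42 of all genes tested. That fall is relative to the scaling: it was -0.085 and did not pass after the arrays were centred (adjusted p = 0.236). The level of npas2 was 10.20, 10.31 and 10.42 in heterozygous and 10.50, 10.60 and 10.72 in mutant eyes. Here every mutant pool lay above every heterozygous pool. In all, the groups did not overlap for 3 of the 6 activators at 28 dpf, against 64.4% of all genes.

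The order of the pools was also alike between activators. At 28 dpf replicate 3 held the highest value of its group in both genotypes for 4 of the 6 activators (bmal1a, bmal1b, clocka and npas2), as it did for 11.96% of all genes tested. In heterozygous eyes replicate 3 was the highest pool of every activator, at 7 as at 28 dpf. In mutant eyes at 7 dpf it was so only for npas2. The share of all genes with the order within a single group was not taken. The labels do not say whether equal replicate numbers mark a shared clutch or collection time, and the part of this in the spread was not tested. Marker sums moved as well at 28 dpf. The 8 erythrocyte markers summed to 769 to 1137 in heterozygous and 1630 to 2282 in mutant pools. Globin genes carried this rise, with log2 means of 6.67 and 9.86 for hbae1.1, 6.12 and 7.58 for hbae3 and 7.28 and 8.65 for hbbe2. Other members went the other way, namely alas2 (7.99 and 7.54), slc4a1a (7.80 and 7.17) and epb41b (5.49 and 5.23). The 18 inner retina neuron markers summed to 23539 to 24230 and 25713 to 26351, and the pigment epithelium markers to 13198 to 14692 and 12230 to 12354. Some members went against these sums. Among the neuron markers, prkcaa, tfap2a, tfap2b, gad2 (10.72 and 10.40) and slc32a1 were lower in mutant eyes. Among the pigment epithelium markers, rgra, best1 (7.93 and 8.26), dct and tyr (8.26 and 8.53) were higher. The Muller glia markers summed to 7928 to 7994 in heterozygous and 8537 to 8632 in mutant pools, opposite in direction to 7 dpf. Their largest move was that of vim (log2 means 8.84 and 10.03), while cahz (9.79 and 9.21), rlbp1a (10.16 and 10.02) and gfap (7.40 and 7.37) were lower in mutant eyes. The pineal markers summed to 1596 to 1815 and 2088 to 2468, with otx5 at 9.75 and 10.52 and exorh at 6.46 and 7.20, while aanat2 was lower (9.51 and 9.31). Whether these sums reflect numbers of cells, and their part in the differences of the activators at 28 dpf, was not tested.

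The genotype differences of 4 activators differed between the ages by limma's interaction, which takes the 28 dpf difference minus the 7 dpf difference. The value was -1.48 ± 0.23 for bmal2 (adjusted p = 7.3e-05), -0.44 ± 0.12 for clocka (adjusted p = 0.00754), -0.42 ± 0.085 for clockb (adjusted p = 0.000863) and 0.37 ± 0.097 for npas2 (adjusted p = 0.00502). For bmal2 and clocka the rise was thus larger in larval than in juvenile eyes. The estimates of clockb and npas2 had opposite signs at the 2 ages. Their differences at 7 dpf (0.14 and -0.076) did not pass, and the fall of clockb at 28 dpf did not pass after centring. The interaction thus shows a changed difference for these genes, not a reversal. Of all genes 47.2% passed the same test, 29.1% with a negative and 18.1% with a positive value, so 4 of 6 is near the background, but the interaction of bmal2 was the 41st most negative among the 14002 genes. After centring, that of clocka was -0.27 and did not pass (adjusted p = 0.0758), and that of clockb was -0.25 and passed (adjusted p = 0.0251). For bmal1a and bmal1b the values were -0.030 (95% confidence interval -0.26 to 0.20) and -0.034 (-0.24 to 0.17).

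**Figure D2:**
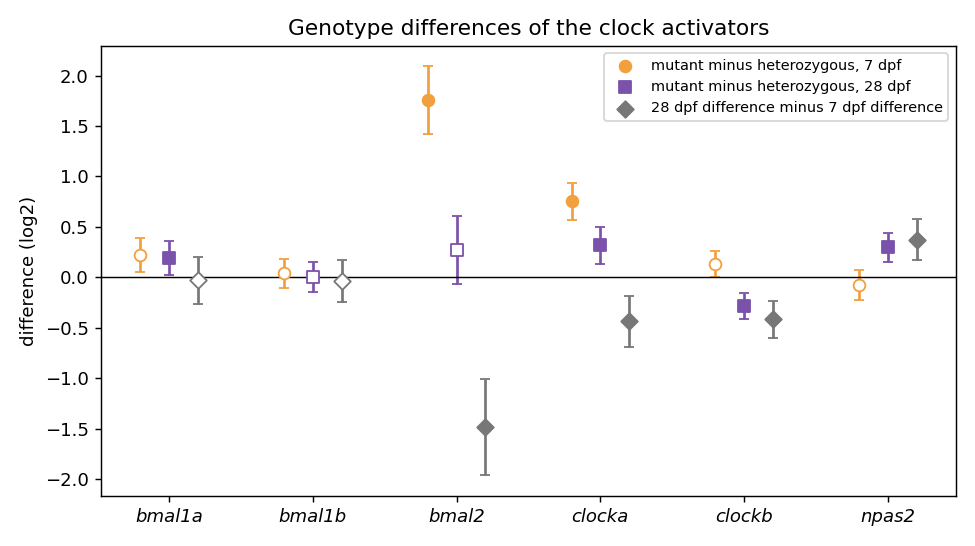
Difference between mutant and heterozygous eyes (log2, vertical axis) for each activator at 7 dpf (orange circles) and 28 dpf (purple squares), and the difference between those differences (grey diamonds). Whiskers are 95% confidence intervals of the limma fit (n = 3 pools a group), and filled symbols passed at an adjusted p under 0.05. The rises of bmal2 (1.75) and clocka (0.75) at 7 dpf exceed all other differences shown at either age.

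A shift that is the same for all transcripts of an array, such as centring, cannot move the difference between 2 transcripts of that array, while quantile normalization can. Members of a subfamily were therefore also set against each other within arrays. This comparison was added after the values were seen, so its p-values describe gaps drawn from the same data and are not independent support. It covered 6 pairs, which share genes, with an exact two-sided permutation test that swapped pools within each age. At 1 age the smallest p that this exact test can give is 0.1, and over both ages, with 400 arrangements, it is 0.005. Each gap is given relative to its mean in heterozygous eyes at 7 dpf, so that no probe set's level is set against another's.

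The gap between clocka and clockb widened in favour of clocka by nearly the same amount at both ages. In mutant minus heterozygous eyes it changed by 0.62 ± 0.096 at 7 dpf and by 0.60 ± 0.11 at 28 dpf (exact p = 0.1 each; over both ages mean 0.61, exact p = 0.005, adjusted over the 6 pairs 0.015). Heterozygous pools lay between -0.024 and 0.043 at 7 dpf and between 0.067 and 0.25 at 28 dpf, and mutant pools between 0.45 and 0.78 and between 0.60 and 0.92. The groups of the 2 genotypes did not overlap at either age. Among single genes, 30.4% at 7 dpf and 64.4% at 28 dpf did not overlap. The share of all pairs of genes with gaps that do not overlap was not taken, so how common such gaps are is not known. After quantile normalization the changes of the clocka and clockb gap were 0.62 and 0.58. The gap between bmal1a and bmal1b changed by 0.18 ± 0.056 and 0.19 ± 0.061 in favour of bmal1a (exact p = 0.1 each; over both ages exact p = 0.005, adjusted 0.015). Here too no mutant pool reached the heterozygous range of its age, but after quantile normalization the changes were 0.17 and 0.33, so their size at 28 dpf depends on the scaling.

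The other 4 gaps had unlike changes at the 2 ages, and the difference between the ages was not tested for them. Their means over both ages, and the p-values of those means, thus mix unlike changes. Between bmal2 and bmal1a the change was 1.53 ± 0.083 at 7 dpf and 0.078 ± 0.24 at 28 dpf, where the pools overlapped (mean over both ages 0.81, exact p = 0.04, adjusted 0.048). For bmal2 and bmal1b it was 1.71 ± 0.091 and 0.26 ± 0.22 (exact p over both ages = 0.015, adjusted 0.03), with 0.44 at 28 dpf after quantile normalization. Against npas2, clocka gained 0.83 ± 0.086 at 7 dpf and 0.019 ± 0.057 at 28 dpf (exact p over both ages = 0.04, adjusted 0.048). At 28 dpf alone the exact p was 0.8 for bmal2 against bmal1a, 0.3 for bmal2 against bmal1b and 0.8 for clocka against npas2. The gap between clockb and npas2 changed by 0.21 ± 0.053 at 7 dpf and by -0.58 ± 0.079 at 28 dpf, with no overlap of the genotypes at either age, in opposite directions. The mean over both ages, which takes these opposite changes together, did not pass (-0.18, exact p = 0.185).

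**Figure D3:**
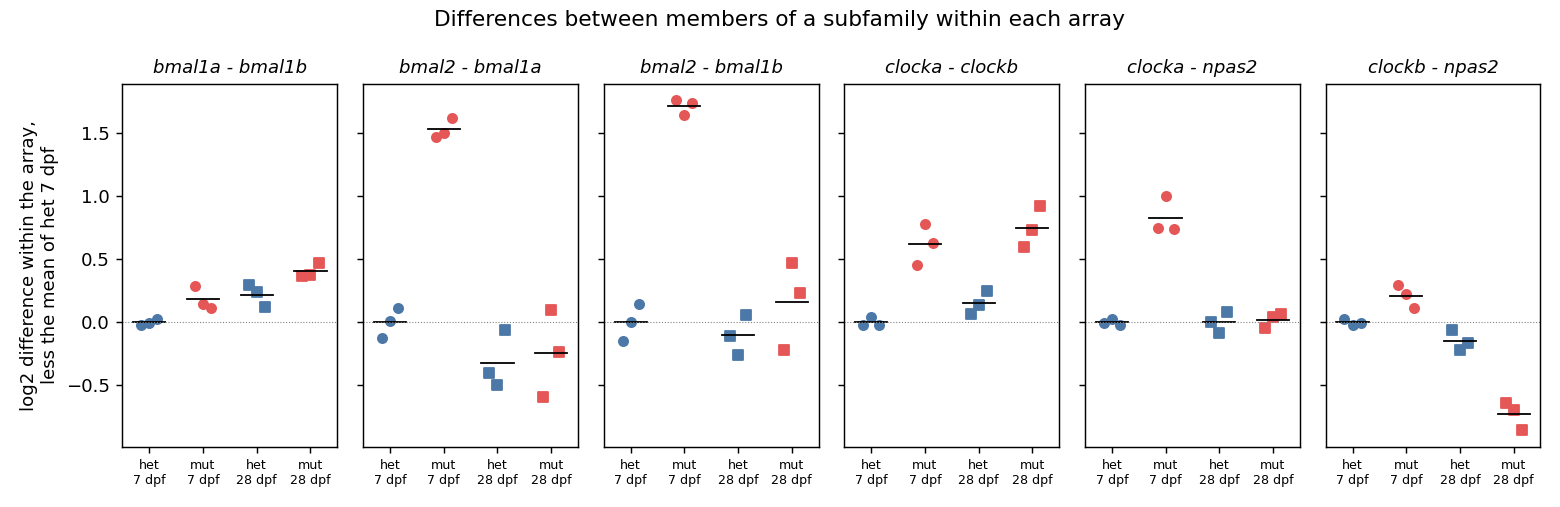
Log2 difference between 2 activators on the same array, less the mean of that difference in heterozygous eyes at 7 dpf (vertical axis), for 6 pairs of genes and the 4 groups (het, blue; mut, red; circles 7 dpf, squares 28 dpf). Points are pools and black lines group means. The clocka and clockb gap rises by 0.62 and 0.60 from heterozygous to mutant eyes at the 2 ages, while the bmal2 gaps rise mainly at 7 dpf.

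Between 7 and 28 dpf, transcripts fell in heterozygous eyes for clockb (-0.36 ± 0.060, adjusted p = 0.000154), npas2 (-0.21 ± 0.069, adjusted p = 0.0198) and bmal1b (-0.20 ± 0.069, adjusted p = 0.0298). These 3 of 6, with no rise (0), compare with 43% of all genes called, 22.1% that fell and 20.9% that rose. The pools of the 2 ages did not overlap for 2 of the 6 (clockb and npas2), against 56.3% of all genes. The falls of npas2 and bmal1b depended on single arrays. That of npas2 was lost without heterozygous replicate 3 at 7 dpf (-0.17, adjusted p = 0.0878) or heterozygous replicate 1 at 28 dpf (-0.16, adjusted p = 0.103). That of bmal1b was lost without heterozygous replicate 2 or 3 at 7 dpf (adjusted p = 0.0646 and 0.104) or heterozygous replicate 1 or 2 at 28 dpf (adjusted p = 0.177 and 0.0720). The differences of clocka (-0.21 ± 0.085, adjusted p = 0.0558), bmal2 (-0.30 ± 0.16, adjusted p = 0.142) and bmal1a (0.022 ± 0.078) did not pass. Those of clocka and bmal2 did pass without heterozygous replicate 3 at 28 dpf (-0.31, adjusted p = 0.00695, and -0.47, adjusted p = 0.0276). With 1 array left out at a time, clocka stayed uncalled in 9 of 12 fits and bmal2 in 11 of 12.

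In mutant eyes 4 activators fell over the same interval. Transcripts of bmal2 fell by 1.78 ± 0.16, clockb by 0.78 ± 0.060, clocka by 0.65 ± 0.085 and bmal1b by 0.23 ± 0.069 (adjusted p = 1.2e-07, 3.0e-08, 6.9e-06 and 0.00796). The groups of these 4 did not overlap, against 65.7% of all genes, and 63.9% of all genes were called, 37.9% as falls. For bmal2 the fall was the 10th largest of 14002. That of bmal1b was -0.096 and did not pass after centring (adjusted p = 0.236). The difference of npas2 was 0.16 ± 0.069 and lay at the threshold (adjusted p = 0.0501), and it was 0.30 after centring, where it passed (adjusted p = 0.00203), and 0.079 after quantile normalization (adjusted p = 0.333). This comparison shares its pools with the genotype comparisons, so it is not a separate line of evidence. Marker sums moved with age too. From 7 to 28 dpf the 14 lens markers went from 35182 to 38922 up to 45234 to 47876 in heterozygous pools, and the erythrocyte markers from 2880.0 to 4008 down to 769 to 1137. The globin genes hbae1.1 and hbae3 led that fall, with log2 means from 10.54 to 6.67 and from 10.04 to 6.12. Not all members fell, since alas2 went from 7.19 to 7.99 and epb41b from 5.02 to 5.49. In heterozygous pools the 15 skeletal muscle markers went from 824 to 1066 up to 2148 to 2681. There the pigment epithelium markers went from 16209.5 to 18520 down to 13198 to 14692, and the inner retina neuron markers from 25977 to 26501 down to 23539 to 24230. In mutant pools the 17 photoreceptor markers went from 39459.8 to 40691 up to 45551 to 46886, and the Muller glia markers from 6234 to 6642 up to 8537 to 8632. Some members went against these sums as well. Log2 means of rcvrna, rcvrn2, opn1sw1 (12.79 to 12.61) and opn1lw2 fell in mutant eyes. Among the lens markers, mipb and lim2.4 (9.72 to 9.51) fell in heterozygous eyes, as did acta1a and mylpfb among the muscle markers. In the same eyes the pigment epithelium markers rlbp1b, stra6, best1 and pmelb and the neuron markers grm6a, tfap2b and gad2 rose. The Muller glia markers rlbp1a and glulb fell in mutant eyes. Whether these sums reflect numbers of cells, and their part in the differences with age, was not tested.

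Ordered by level, the 4 groups fell into different patterns for different activators. For bmal2 the pools of 3 groups ran together (heterozygous 28 dpf, mutant 28 dpf, heterozygous 7 dpf, with means of 7.55, 7.82 and 7.85), and the mutant eyes at 7 dpf stood above them (9.61). The order of clocka was the same kind, with neighbours overlapping from heterozygous 28 dpf (9.53) through heterozygous 7 dpf (9.74) to mutant 28 dpf (9.85), and mutant 7 dpf above (10.49). For clockb the order ran by age, from mutant 28 dpf (9.51) through heterozygous 28 dpf (9.80), which did not overlap, to heterozygous and mutant 7 dpf (10.16 and 10.30), which did. The group means of bmal1b were ordered by age, with 9.76 in both genotypes at 28 dpf and 9.95 and 9.99 at 7 dpf. Heterozygous pools of the 2 ages overlapped, since one at 28 dpf (9.93) lay above one at 7 dpf (9.91). The groups of bmal1a were split by genotype, with 7.93 and 7.95 in heterozygous and 8.15 and 8.14 in mutant eyes at 7 and 28 dpf. For npas2 every group overlapped its neighbour in the order (10.31, 10.45, 10.52 and 10.61 for heterozygous 28 dpf, mutant 7 dpf, heterozygous 7 dpf and mutant 28 dpf).

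Other genes of the clock were taken from lists by role, which were chosen with earlier results of these data known. Over all 66 genes tested in the 5 clock lists, 7 rose and 20 fell at 7 dpf (12.4% of all genes called), and 26 rose and 16 fell at 28 dpf (60.8%). At 28 dpf these counts became 41 and 11 after centring, and 31 and 14 after quantile normalization. Their median differences were -0.056 and 0.10, against -0.029 and -0.089 over all genes.

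The list of period and cryptochrome genes was drawn by family. It includes repressors that the activators switch on, but not every member need be one, and it also holds the photolyase relative cry-dash. Counts and medians of this list are thus not those of repressors alone. Of its 11 tested genes 6 fell and 2 rose at 7 dpf, against 12.4% of all genes called, with a median of -0.30. The 2 that rose, named here after their values were seen, were cry3a (0.48) and cry3b (0.47). The falls were led by per1b (-1.53 ± 0.25), per3 (-1.19 ± 0.12) and the photolyase relative cry-dash (-1.18 ± 0.10; adjusted p = 0.000621, 9.0e-06 and 1.4e-06). At 28 dpf 4 of the 11 rose and 0 fell (median 0.12), against 60.8% of all genes called. Among the rises were cry2 at 0.72 ± 0.074, cry1b at 0.52 ± 0.11 and per2, a light-induced period gene, at 0.33 ± 0.072 (adjusted p = 7.5e-07, 0.000987 and 0.000879). After centring 8 of the 11 rose at 28 dpf, and after quantile normalization 7 did. At that age per1b varied widely between pools (SD 0.68 in heterozygous and 0.48 in mutant eyes), and its means were 7.12 and 7.31.

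Among genes of the Rev-erb and ROR receptor families, 2 had larger rises than any activator at 7 dpf. Whether their products act on the activator genes in these eyes was not tested. Of 9 Rev-erb and ROR genes 2 rose at 7 dpf and 3 fell, against 12.4% of all genes called. The Rev-erb genes nr1d4b and nr1d4a rose by 3.49 ± 0.13 and 2.61 ± 0.11, in the same mutant pools as bmal2 and clocka, while nr1d2b fell by 0.89 ± 0.26 (adjusted p = 0.0313). The call of nr1d2b was lost without any one of the 6 arrays of that age (adjusted p = 0.0549 to 0.0909). The ROR genes roraa (-0.43, adjusted p = 0.000124) and rorab (-0.44, adjusted p = 4.7e-05) also fell at 7 dpf, and are named here after their values were seen. At 28 dpf 7 of the 9 rose and 0 fell (median 0.46), against 60.8% of all genes called. These rises were led by nr1d4b (0.999 ± 0.13), nr1d4a (0.87 ± 0.11) and the ROR gene rorab (0.51 ± 0.054), with adjusted p = 7.0e-06, 6.9e-06 and 1.0e-06.

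Output factors of the PAR bZIP family, which carry the rhythm to further genes through D-box sequences, and their competitor nfil3 formed the next list. Of 10 tested, 4 fell and 1 rose at 7 dpf (median -0.22), against 12.4% of all genes called. Among them were tefa at -0.78 ± 0.098, tefb at -0.60 ± 0.098 and nfil3-2 at 0.75 ± 0.19 (adjusted p = 5.1e-05, 0.000589 and 0.0166). The rise of nfil3-2 was lost without heterozygous replicate 1 or 2 or mutant replicate 2 or 3 of that age (adjusted p = 0.0505 to 0.0713). At 28 dpf 9 of the 10 rose and 0 fell (median 0.49), against 60.8% of all genes called. These rises were led by dbpb (1.66 ± 0.12), nfil3-2 (0.91 ± 0.19) and nfil3-5 (0.75 ± 0.17), with adjusted p = 2.6e-08, 0.000747 and 0.00144.

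Genes listed as modifiers of the activators, not all of which act on them directly, moved both ways. Of 16 such genes 5 fell and 1 rose at 7 dpf, against 12.4% of all genes called (median -0.0025, or 0.026 after centring). Among the falls were bhlhe40 (-0.93 ± 0.076) and bhlhe41 (-0.79 ± 0.13), which compete with the activators for E-boxes, and ciarta (-0.80 ± 0.12), a repressor of the BMAL and CLOCK pair (adjusted p = 9.2e-07, 0.000521 and 0.000264). At 28 dpf 8 fell and 5 rose, against 60.8% of all genes called (median -0.042, or 0.16 after centring and -0.012 after quantile normalization). After centring 7 fell and 8 rose, and after quantile normalization 7 fell and 5 rose, so the excess of falls depends on the scaling. The histone deacetylase gene hdac3 fell by 1.09 ± 0.081 and the coactivator gene crebbpb by 0.94 ± 0.079, and bhlhe41 rose by 0.79 ± 0.13 (adjusted p = 2.7e-08, 9.7e-08 and 6.5e-05). The 20 kinase, phosphatase and ubiquitin pathway genes had a median of -0.0096 at 7 dpf (0.019 after centring). Of these 20 genes, 1 rose and 2 fell, near the 12.4% of all genes called. They were fbxl3l (1.53 ± 0.22), related to the ligase gene that marks cryptochromes for decay, and the deubiquitinase genes usp2b (-0.87 ± 0.10) and usp2a (-0.57 ± 0.057; adjusted p = 0.000166, 2.5e-05 and 5.9e-06). At 28 dpf 8 of the 20 fell and 1 rose, against 39% and 21.8% of all genes. After quantile normalization 7 fell and 3 rose, but after centring 4 fell and 8 rose, so no direction can be given to that list. With the deposited scaling the 3 largest differences at 28 dpf were in the kinase gene gsk3aa (-0.65 ± 0.087), the ligase gene ube3a (-0.62 ± 0.071) and the phosphatase gene ppp1cab (-0.58 ± 0.063; adjusted p = 9.5e-06, 2.4e-06 and 1.4e-06). After centring they were -0.46, -0.42 and -0.38, and the kinase gene csnk1e, chosen here after its value was seen, was larger in size at 0.54.

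**Figure D4:**
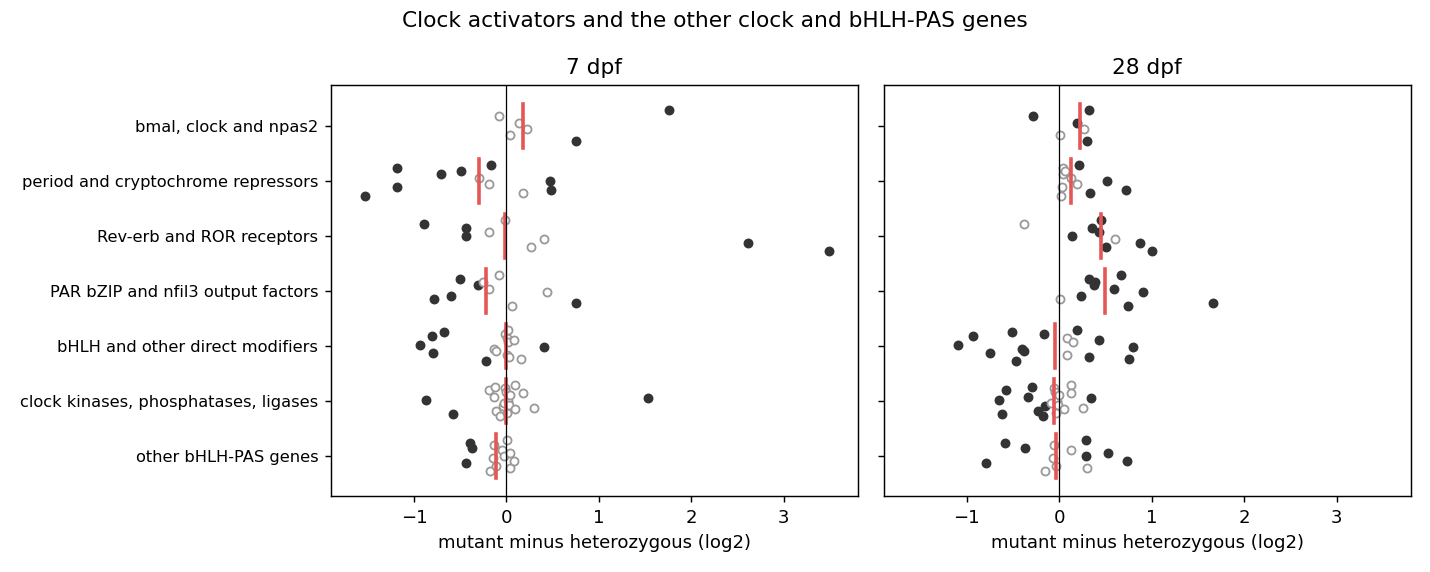
Difference between mutant and heterozygous eyes (log2, horizontal axis) at 7 dpf (left) and 28 dpf (right) for the 6 activators and for the tested genes of 6 other lists (rows). Each point is 1 gene, filled where it passed at an adjusted p under 0.05, and the red bar is the median of the list; vertical scatter within a row has no meaning. The medians of the period and cryptochrome genes and of the output factors lie at -0.30 and -0.22 at 7 dpf and at 0.12 and 0.49 at 28 dpf, while those of the activators lie at 0.18 and 0.23.

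The transcripts whose pattern was most like that of an activator were taken by Pearson correlation over the 12 arrays. The values describe these arrays only, since the arrays share groups and the differences between groups set most of each correlation. For bmal2 they were fam131aa (0.975), nr1d4a (0.974) and nr1d4b (0.970), and for clocka nr1d4a (0.980), spsb3b (0.977) and nr1d4b (0.973). Both activators therefore had the 2 nr1d4 genes among their 3 nearest, and correlated with each other at 0.964. Nearest to clockb were troap, IQGAP3 and fut9a (0.985, 0.981 and 0.980), and nearest to npas2 were fzd8b, histh1l1 and nfat5a (0.933, 0.924 and 0.923). For bmal1a they were spsb3a, pcdh2g29 and cerkl (0.904, 0.891 and 0.886), and for bmal1b rbms1a, grm2a and dcaf11 (0.920, 0.920 and 0.919). The most opposite patterns were those of ric8a for bmal2 (-0.984), snx27a for clocka (-0.982), crlf3 for clockb (-0.979), ktn1 for bmal1b (-0.942), tmem256 for npas2 (-0.925) and smco4 for bmal1a (-0.906). Among the 15 pairs of activators the lowest correlation was that of clockb and npas2 (-0.137).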

How the data were processed

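Total RNA of whole eyes was measured on 12 arrays, 1 per pool. Each deposited value is a log2 intensity of a probe set, which the authors made with RMA in Affymetrix Expression Console (per the submitters' processing notes; versions and genome build not given in the sources used here). A human/mouse array type is named in the labels' protocols, but the probes listed are those of a zebrafish platform. Groups and replicate numbers came from the titles. The platform table named 20806 probe sets by 1 symbol, 855 by several and 53551 by none. Of those with 1 symbol, 20323 probe sets had an Entrez identifier found in RefSeq (GRCz12tu, used for names only). Of several probe sets of a gene, the brightest stood for it.

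All comparisons used limma 3.58.1 under R 4.3.3 (1 mean per group, all 12 arrays, eBayes with trend). Benjamini-Hochberg adjustment ran over 14002 genes, and genes were called at an adjusted p under 0.05. Whether the pools are of separate clutches is not stated, and p-values then measure only the spread between these pools, which may be technical. Precision is set by the number of arrays, with a median SE of 0.081 for a difference. Signal over background was not measured.

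The activators and the lists were chosen with earlier results of these data known. Of 216 list entries, markers included, 189 matched a gene on the array. All activators are named. From each list, the up to 3 called genes with the largest differences are named per genotype comparison, and for each activator the 3 genes most like it and the 1 most opposite, clone names passed over. Promoter and protein sequences were not used here. Alternatives were other filters, scalings and variance models, the mean over probe sets, all probe sets, the arrays of a comparison alone, the replicate number as a block and leaving out each array. Same-numbered pools did not deviate together throughout (correlations of deviations from the group means -0.097 to 0.14 over 18 pairs, 2 above 0.1), so the numbers were not taken as pairs.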

Additional observations from a re-analysis of the deposited data

Results flagged for a closer look

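The genotype difference of 4 activators differed between the ages by limma's interaction (28 dpf difference minus 7 dpf difference, log2). It was -1.48 for bmal2, -0.44 for clocka, -0.42 for clockb and 0.37 for npas2. The same test passed for these named genes of the other lists. Among period and cryptochrome genes it was 1.73 for per1b, 1.20 for per3, 1.22 for cry-dash, 1.43 for cry2, 0.82 for cry1b and 0.52 for per2. Among the receptors it was -2.49 for nr1d4b, -1.74 for nr1d4a and 0.94 for rorab. Among the output factors it was 1.17 for tefa, 1.27 for tefb and 1.85 for dbpb. Among genes listed as modifiers of the activators it was 1.02 for bhlhe40, 1.12 for ciarta, 1.59 for bhlhe41, 1.11 for ciartb, -1.08 for hdac3 and -1.02 for crebbpb. Among kinase, phosphatase and ubiquitin pathway genes it was -1.27 for fbxl3l, 0.81 for usp2b, 0.71 for usp2a, -0.54 for gsk3aa, -0.63 for ube3a, -0.45 for ppp1cab and 0.38 for csnk1e. Among bHLH-PAS genes outside the clock it was 0.34 for hif1ab, -0.87 for arnt2 and 0.91 for hif1al. Of all genes 47.2% passed this test.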

How the results depend on the processing

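With 728 repeats over the activators' differences and counts of calls, 661 were scored as kept. For a difference this meant the same direction and the same side of the threshold. For a count it meant a value near the reported one, so 3 activators called against 2 at 7 dpf still scored as kept. The calls of bmal2 and clocka at 7 dpf and of clocka and npas2 at 28 dpf were kept under all alternatives run. After centring, bmal1a at 7 dpf was 0.25 (called), and at 28 dpf bmal1b was 0.20 and bmal2 0.47 (called) and clockb -0.085 (not called). Centring also turned the interactions of bmal1a (0.14) and bmal1b (0.13) and the age differences of bmal1a (-0.012 heterozygous, 0.13 mutant), none called, ended the calls of the clocka interaction (-0.27) and of bmal1b with age in mutant eyes (-0.096), and made calls of clocka with age in heterozygous (-0.25) and npas2 in mutant eyes (0.30). Quantile normalization made calls of bmal1a (0.26) and clockb (0.18) at 7 dpf, so that 4 activators were called, and of bmal2 at 28 dpf (0.44). It turned bmal1b at 28 dpf (-0.0087), the bmal1a interaction (0.058) and bmal1a with age in mutant eyes (0.078), none called. The cause was not tested. Other settings moved only adjusted p-values. The call of bmal1a at 28 dpf (0.19) was lost with no filter, with all probe sets (adjusted p = 0.120) and with the arrays of the comparison alone. With age in heterozygous eyes, bmal1b (-0.20) was lost with all probe sets or no trend and npas2 (-0.21) with all probe sets, which left 1 activator called, and clocka (-0.21) was called with the arrays of the comparison alone. With age in mutant eyes, npas2 (0.16) was called with the 50th percentile filter. With the replicate number as a block, clocka with age in heterozygous (-0.21, adjusted p = 0.0210) and npas2 in mutant eyes (0.16, adjusted p = 0.0134) were called and no other call of an activator changed; over all genes the block gave 1803, 8547 and 6594 calls for 7 dpf, 28 dpf and the interaction, against 1743, 8513 and 6610. With all probe sets, calls numbered 17292 at 28 dpf, 10753 for the interaction, and 10393 and 18880 with age in heterozygous and mutant eyes, against 8513, 6610, 6021 and 8948, as more features were tested.

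Without any one array the 28 dpf differences ranged from 0.12 to 0.23 for bmal1a, from -0.076 to 0.089 for bmal1b (below 0 without heterozygous replicate 1, -0.076, or 2, -0.00048, or mutant replicate 3, -0.029) and from 0.13 to 0.48 for bmal2. Interactions ranged from -0.096 to 0.035 for bmal1a and from -0.11 to 0.050 for bmal1b. They were above 0 for bmal1a without heterozygous (0.0056) or mutant replicate 1 (0.035) at 7 dpf or heterozygous replicate 3 (0.0054) or mutant replicate 1 (0.0083) at 28 dpf, and for bmal1b without heterozygous replicate 3 at 28 dpf (0.050). With age in heterozygous eyes the ranges were -0.014 to 0.064 for bmal1a, -0.28 to -0.12 for bmal1b, -0.47 to -0.20 for bmal2, -0.31 to -0.16 for clocka and -0.27 to -0.16 for npas2, with 1 to 5 activators called (1 without heterozygous replicate 3 at 7 dpf or 1 at 28 dpf, 5 without heterozygous replicate 3 at 28 dpf). In mutant eyes they were -0.074 to 0.056 for bmal1a and 0.11 to 0.21 for npas2, which was called without mutant replicate 3 at 7 dpf or, at 28 dpf, heterozygous replicate 1 or 3 or mutant replicate 1. The clocka and clockb gap changed by 0.54 to 0.70 at 7 dpf and 0.51 to 0.68 at 28 dpf without any one pool, and that of bmal1a and bmal1b by 0.13 to 0.22 and 0.14 to 0.23. At 28 dpf bmal2 against bmal1a ranged from -0.092 to 0.25, bmal2 against bmal1b from 0.11 to 0.46 and clocka against npas2 from -0.022 to 0.059. The ranges and quantile values of these gaps were chosen after seeing the data. The number of arrays limits all of these.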

Other observations

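Other genes of the bHLH-PAS family, to which BMAL, CLOCK and NPAS2 belong, were measured beside the activators. Of 13 tested, 3 fell and none (0) rose at 7 dpf, against 12.4% of all genes called. They were the hypoxia factor genes epas1b (-0.44 ± 0.064), epas1a (-0.40 ± 0.072) and hif1ab (-0.37 ± 0.042; difference ± SE, log2, limma adjusted p = 0.000186, 0.00141 and 1.8e-05, n = 3 against 3). At 28 dpf 4 rose and 3 fell, against 60.8% of all genes. After the arrays were centred 7 rose and 3 fell, and after quantile normalization 6 rose and 3 fell. The partner gene arnt2, whose product pairs with several members of the family, fell by 0.79 ± 0.079 and epas1b by 0.59 ± 0.064, while hif1al rose by 0.73 ± 0.088 (adjusted p = 5.2e-07, 1.2e-06 and 3.3e-06). From 7 to 28 dpf hif1al fell by 0.72 and epas1b rose by 0.67 in heterozygous eyes. In mutant eyes arnt2 fell by 0.91 and hif1ab rose by 0.57 over the same interval.

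Clock genes of the other lists changed with age as well, against 43% of all genes called in heterozygous and 63.9% in mutant eyes. In heterozygous eyes 28 of 66 fell and 6 rose, with large falls in cry-dash (-2.07 ± 0.10, to a level below the 33rd percentile), nr1d1 (-1.85 ± 0.26) and tefa (-1.32 ± 0.098). In mutant eyes 26 fell and 19 rose (19 and 26 after centring, 26 and 20 after quantile normalization), with nr1d4b at -3.16 ± 0.13, nr1d4a at -2.52 ± 0.11 and bhlhe41 at 1.27 ± 0.13.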
